A study of Mus musculus with 12 samples.

Results

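The 7 mouse carbonic anhydrase genes Car2, Car3, Car4, Car5b, Car9, Car12 and Car13 were followed in adipocytes in which the forkhead transcription factor Foxp1 had been raised or lowered. They were found by gene symbol among 28948 genes of an RNA expression matrix, and all 7 were listed. Of these, 6 reached 1 RPKM (a read count divided by exon length and library size) in at least 3 of the 12 libraries and were tested among 11245 such genes. Car4 did not and was too low to measure.

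The cells were 3T3-L1, a fibroblast-like line from Swiss mouse embryos that accumulates fat after hormonal induction. The 4 groups of 3 libraries each were cells with constitutive expression of FOXP1, cells with an empty vector, cells with a short hairpin RNA (shRNA) against Foxp1, and cells with a scrambled shRNA. All 4 groups had been differentiated with insulin at 5 µg/ml, troglitazone at 10 µM, the phosphodiesterase inhibitor isobutylmethylxanthine at 0.5 mM and dexamethasone at 1 µM, then held on insulin as the sole inducer from day 4 and on growth medium from day 6. The labels give neither the day of harvest nor the vector, and they do not say whether replicates were separate cultures. The p-values therefore measure the spread between these libraries, which may be technical. The line is immortal and the cells carry a construct in all 4 groups, so that no group stands for unmanipulated fat tissue.

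Carbonic anhydrases are zinc enzymes that interconvert carbon dioxide and bicarbonate with release or uptake of a proton. Family members differ mainly in where the catalytic domain sits: in the cytosol (Car1, Car2, Car3, Car13), in mitochondria (Car5a, Car5b), tethered outside the cell by a lipid anchor (Car4) or by a membrane-spanning segment (Car9, Car12, Car14), or secreted (Car6). In fat cells Car3 is known as an abundant cytosolic protein of the mature cell, and the mitochondrial isoforms are known to supply bicarbonate to pyruvate carboxylase. CA9 and CA12 are known in human cells as hypoxia-inducible enzymes that act on extracellular pH.

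The sequence the members share is the zinc site. The 30 coding bases around it are shown, with the codons of the first 2 zinc-binding histidines in capitals (GRCm38, coding strand, 5′ to 3′). This stretch alone does not settle whether an enzyme is active. Car11, a relative known to lack activity, is given last for contrast.
Car2: atccagtttCACtttCACtggggctcatct
Car3: cgccaattcCATcttCACtggggctcctct
Car13: cggcagttcCATttgCACtgggggtcagca
Car5b: aagcagtttCATtttCATtggggagccatt
Car4: gtacagttgCACctgCACtggtcaaatggg
Car9: ttgcagttgCATctaCACtggggaacttca
Car12: gagcagctgCACttgCACtgggggaaccgc
Car11: agtgaactgcgcctgctatttggagctcga
All 7 members had both histidine codons, each pair within a single exon, and Car11 had 0 of 2. The family genes Car8 and Car10, not shown, each had 1 of 2. The longest run of identical bases between the transcripts of any pair of these genes and Car1 was 10 to 30 bases. Reads shared between members were not examined, since the handling of reads that match several places is not given in the sources used here.

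The libraries held 35196318 to 38389454 reads assigned to annotated genes, recovered from the deposited values, so that 1 read in 1 kilobase of exon was worth 0.0260 to 0.0284 RPKM. Foxp1 itself averaged 6.56 ± 0.71 RPKM in overexpressing cells and 1.80 ± 0.0349 RPKM in empty-vector cells, and 1.11 ± 0.0335 RPKM in hairpin cells and 2.18 ± 0.0624 RPKM in scrambled-hairpin cells (SD, n = 3 each). All 6 fat cell markers (Adipoq, Plin1, Cidec, Fabp4, Pparg, Lipe) were tested, and their summed level was 2503 to 2705 RPKM in overexpressing cells against 5990 to 6087 RPKM in empty-vector cells. It was 7479 to 8017 RPKM in hairpin cells against 5199 to 5328 RPKM in scrambled-hairpin cells. Cidec weighs heavily in this sum, at a mean of 3961 RPKM in hairpin cells and 2294 RPKM in scrambled-hairpin cells. Pparg went the other way, at 82.1 RPKM in hairpin cells and 88.7 RPKM in scrambled-hairpin cells. The share of reads from mitochondrial genes was 9.65% to 13.1% in overexpressing cells, 8.61% to 9.35% in empty-vector cells, 5.97% to 6.82% in hairpin cells and at most 5.69% in scrambled-hairpin cells. Overexpression replicate 3, at 13.1%, stood apart from the other overexpression libraries at 9.65% and 9.99%.

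With Foxp1 overexpression the cytosolic enzymes Car2, Car3 and Car13 and the mitochondrial Car5b fell relative to empty vector, and the membrane enzymes Car9 and Car12 rose. With the hairpin against Foxp1, Car3 and Car13 rose relative to the scrambled hairpin, while Car9, Car12 and Car5b fell. The directions were therefore opposite in both experiments for Car3, Car13, Car9 and Car12 and alike for Car5b. In bulk RNA, fewer cells expressing a gene and less RNA of it per cell cannot be told apart.

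Calls use an adjusted p below 0.05 from limma on log2(RPKM + 1), with Benjamini-Hochberg adjustment over the 11245 genes. In overexpression 6 of 6 tested members were called, 2 higher and 4 lower, beside 51.4% of all genes tested (31.0% higher and 20.3% lower). In knockdown 5 of 6 were called, 2 higher and 3 lower, beside 49.7% of all genes, 18.7% higher and 31.0% lower. Groups did not overlap for a similar share: 57.5% of all genes in overexpression, 59.6% in knockdown and 78.9% between the controls. The count of 6 members is too small to be read against these shares. Car12 passed the filter on low values through the scrambled-hairpin group alone, and Car9 mainly through the hairpin and scrambled-hairpin groups, so these counts support no statement on the family.

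**Figure D1:**
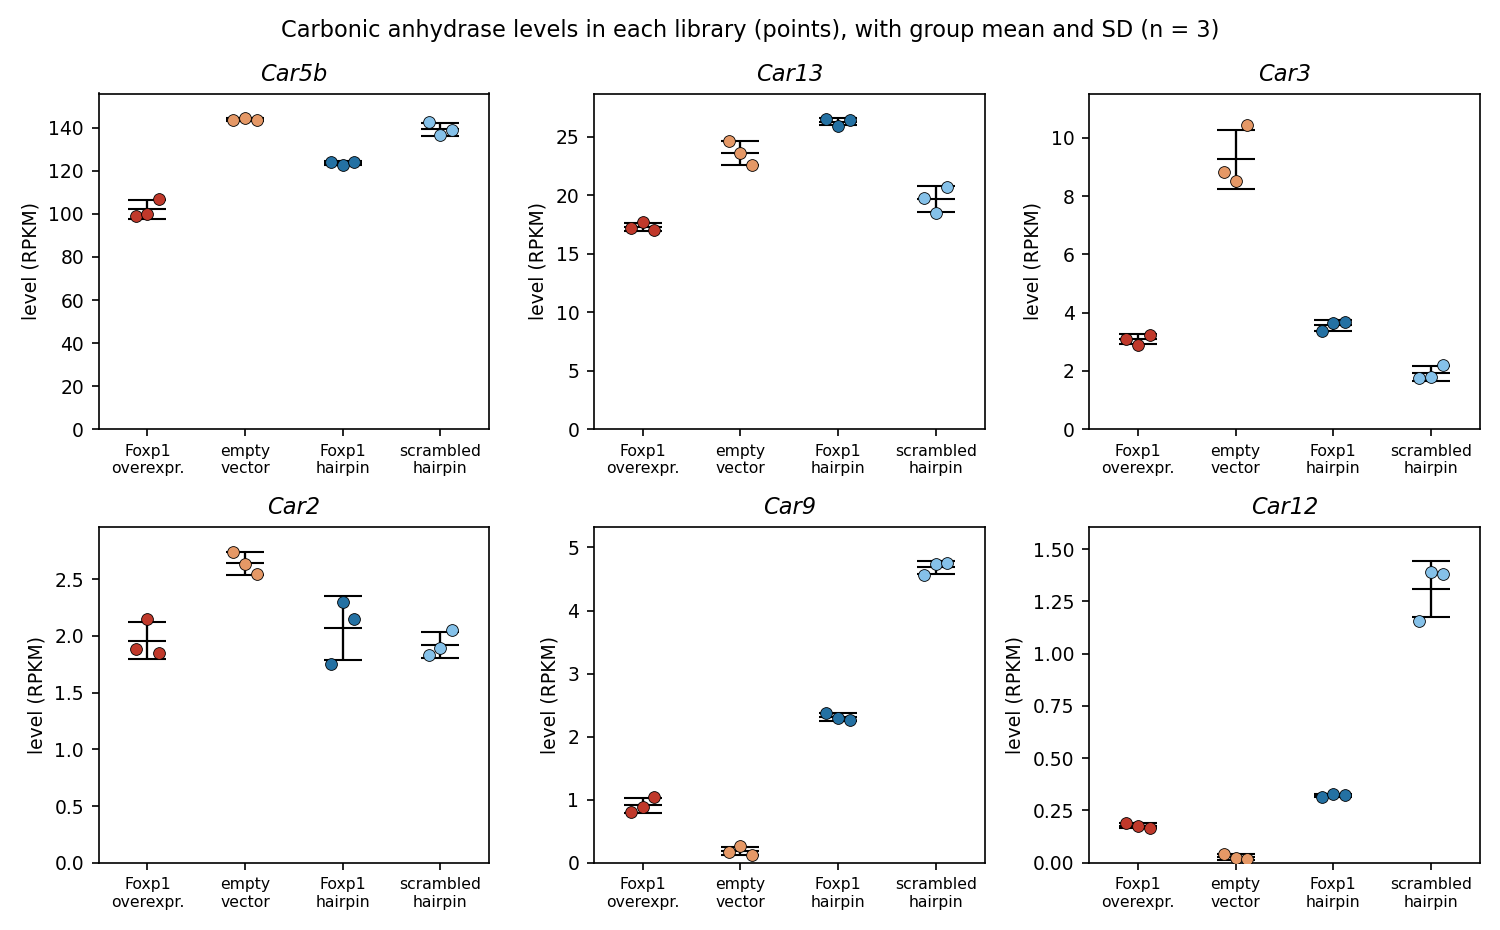
Level of each of the 6 tested carbonic anhydrases (y axis, RPKM, from 0) in the 12 libraries (points) by group (x axis), with the group mean (bar) and SD (whiskers, n = 3). Empty-vector cells hold the highest Car3, Car2 and Car5b and the lowest Car9 and Car12, and scrambled-hairpin cells hold the highest Car9 and Car12.

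Car3 had the widest response of the cytosolic members. Its product is a cytosolic enzyme of low hydratase activity that is plentiful in fat and muscle. Car3 (chr3:14863512-14872523, plus strand, GRCm38) stood at 3.11, 2.90 and 3.24 RPKM in overexpressing cells, against 8.82, 8.52 and 10.4 RPKM in empty-vector cells. The overexpression libraries were all below the empty-vector libraries. The ratio of means was 0.333, and the log2 fold change on the log2(RPKM + 1) scale was -1.32 ± 0.0745 (SE, adjusted p = 1.88e-08). In hairpin cells Car3 stood at 3.36, 3.66 and 3.68 RPKM, against 1.77, 1.79 and 2.21 RPKM in scrambled-hairpin cells. Here every hairpin library was above every scrambled-hairpin library, with a ratio of means of 1.86 and a log2 fold change of 0.65 ± 0.0745 (adjusted p = 2.39e-05).

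Car13, a widely expressed cytosolic isoform, moved in the same directions as Car3 over a narrower range. Car13 (chr3:14641727-14663002, plus strand) was measured at 17.2, 17.7 and 17.1 RPKM in overexpressing cells, against 24.6, 23.7 and 22.6 RPKM in empty-vector cells. The groups did not overlap, and the log2 fold change was -0.43 ± 0.0438 (adjusted p = 5.02e-06). Hairpin cells had 26.5, 25.9 and 26.4 RPKM of Car13, against 19.7, 18.5 and 20.7 RPKM in scrambled-hairpin cells. The hairpin libraries were again all higher, with a log2 fold change of 0.40 ± 0.0438 (adjusted p = 1.56e-05).

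Car2, the fast cytosolic isoform known from red cells, kidney and osteoclasts, was low in these cells. Car2 (chr3:14886273-14900770, plus strand) stood at 1.88, 2.15 and 1.85 RPKM in overexpressing cells, against 2.74, 2.63 and 2.54 RPKM in empty-vector cells, from 165 to 252 reads per library. The groups did not overlap and Car2 fell, with a ratio of means of 0.743 and a log2 fold change of -0.30 ± 0.0661 (adjusted p = 0.00238). Hairpin cells had 1.75, 2.30 and 2.15 RPKM of Car2, against 1.83, 1.89 and 2.05 RPKM in scrambled-hairpin cells. These groups overlapped, and the log2 fold change of 0.07 had a 95% interval of -0.08 to 0.21 (adjusted p = 0.435), so that a change of this size was not detectable. Across the 4 groups Car2 was highest in empty-vector cells, and the order of the other three lay within their spread.

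These 3 members sit together with Car1 in a stretch of chromosome 3 from 14641727 to 14900770, a span of 259044 bases. This grouping was made after the values were seen. The stretch holds 5 listed genes, of which the 4 carbonic anhydrases were tested and the predicted gene Gm5843 reached no more than 0.0571 RPKM. Car1, a cytosolic isoform best known from red cells, averaged 0.762 ± 0.134 RPKM in overexpressing cells and 1.05 ± 0.041 RPKM in empty-vector cells, with a log2 fold change of -0.22 ± 0.0645 (adjusted p = 0.0134). It averaged 1.13 ± 0.0946 RPKM in hairpin cells and 0.863 ± 0.113 RPKM in scrambled-hairpin cells, with a log2 fold change of 0.19 ± 0.0645 (adjusted p = 0.0256). All 4 genes of the stretch thus fell in overexpression, and Car13, Car1 and Car3 rose in knockdown, beside 20.3% of all genes called lower in overexpression and 18.7% called higher in knockdown. With the grouping chosen after the values were seen, nothing is read from this count. Car1 had 30 to 58 reads per library, and its calls depended on single libraries. The overexpression call was lost without overexpression replicate 2 (-0.17, adjusted p = 0.0581). Its knockdown call was lost without hairpin replicate 1 (0.20, adjusted p = 0.0524), hairpin replicate 2 (0.16, adjusted p = 0.0886) or scrambled-hairpin replicate 2 (0.14, adjusted p = 0.109).

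On the side of Car13, the nearest tested gene, 1810022K09Rik, had a log2 fold change of 0.01 in overexpression (adjusted p = 0.940) and rose by 0.34 in knockdown (adjusted p = 0.0159), the direction of Car13, Car1 and Car3. On the side of Car2, the nearest tested gene, Ythdf3, starts only at 16183212, much further from Car2 than the cluster is long. Ythdf3 had a log2 fold change of 0.08 in overexpression (adjusted p = 0.181) and fell by 0.24 in knockdown (adjusted p = 0.00164). The difference between these genes and the cluster was not tested.

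Among markers of other cells that express these cytosolic isoforms, red blood cell markers were close to absent. Of 6 such markers 1 was analysed here, and the summed level was 0 in overexpressing cells and at most 0.0349 RPKM in any library. Of 6 osteoclast and macrophage markers 3 were tested, with a summed level of 21.9 to 24.6 RPKM in overexpressing cells and 17.8 to 18.7 RPKM in empty-vector cells. The sum was 13.8 to 14.1 RPKM in hairpin cells and 10.7 to 11.9 RPKM in scrambled-hairpin cells, most of it from the protease Ctsk and from Cd68, while the leukocyte and macrophage markers Ptprc and Adgre1 were at or next to 0 in every library. Of 6 skeletal muscle markers Acta1 alone was tested, and the list summed to 36.2 to 42.2 RPKM in overexpressing cells and 12.5 to 13.7 RPKM in empty-vector cells, with at most 1.87 RPKM in the hairpin and scrambled-hairpin cells. Myh1 and Myod1 were not analysed here, and Myh7, Myog and Ckm were at or next to 0. The fat cell markers were lower in overexpressing cells and, except for Pparg, higher in hairpin cells, as were Car3 and Car13. In overexpression 6 of 6 fell, beside 20.3% of all genes tested (median log2 fold change -0.67, against 0.04 over all genes). In knockdown 5 of the 6 rose and 1, Pparg, fell, beside 18.7% and 31.0% of all genes (median 0.21, against -0.04). The log2 fold change in knockdown was -0.11 for Pparg (adjusted p = 0.0302), 0.20 for Plin1, 0.22 for Fabp4 and 0.16 for Lipe. Adiponectin (Adipoq) had log2 fold changes of -2.15 and 0.64 in overexpression and knockdown, and the lipid droplet protein Cidec -1.44 and 0.79. The part of these markers in the Car2, Car3 and Car13 results was not tested.

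Car5b was by far the most abundant member, as it ranked 340 of 11245 tested genes by mean RPKM, against 2343 for Car13 and 7009 for Car3. Per kilobase of exon, it made up 81.3%, 80.1%, 78.1% and 82.5% of the summed level of the 7 members in overexpressing, empty-vector, hairpin and scrambled-hairpin cells. Car13 supplied 13.8%, 13.1%, 16.6% and 11.6% in the same groups. Over all listed carbonic anhydrase genes, Car5b supplied 75.2%, 76.6%, 73.5% and 76.0% in the same groups. The summed transcript level of the listed family genes in these cells was therefore mostly that of a mitochondrial enzyme.

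**Figure D2:**
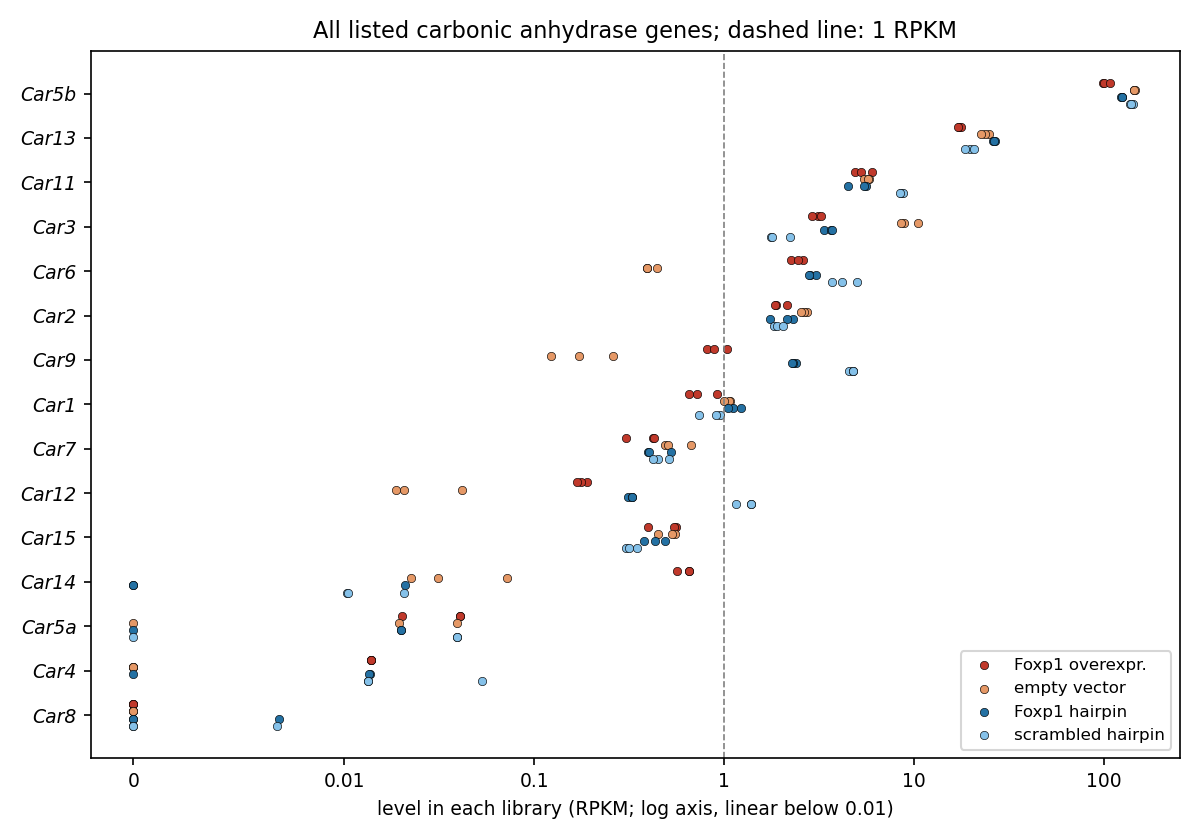
Level in each library (x axis, RPKM, log scale, linear below 0.01) of the 15 listed carbonic anhydrase genes (rows, by mean level), coloured by group. Car5b and Car13 lie right of 10 RPKM in every library, Car4 lies near 0, and the dashed line marks 1 RPKM.

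Car5b (chrX:163976822-164027997, minus strand) stood at 99.0, 100.01 and 107 RPKM in overexpressing cells, against 144, 145 and 143 RPKM in empty-vector cells. It fell with no overlap between the groups, by 0.49 on the log2 scale (SE 0.0362, adjusted p = 2.22e-07). Hairpin cells had 124, 123 and 124 RPKM, against 143, 137 and 139 RPKM in scrambled-hairpin cells. Car5b was thus lower in hairpin cells as well, again without overlap and by a smaller amount, with a log2 fold change of -0.17 ± 0.0362 (adjusted p = 0.00197). Of all genes tested, 5.79% were called lower in both experiments. The response to overexpression was the larger fall: the difference of the responses was -0.32 ± 0.0513 (adjusted p = 0.000203).

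Because Car5b dominates, the summed level of the 7 members followed it. The sum was 125 ± 4.39 RPKM in overexpressing cells and 180 ± 0.542 RPKM in empty-vector cells, and 158 ± 0.883 RPKM in hairpin cells and 169 ± 3.47 RPKM in scrambled-hairpin cells (SD, n = 3 each). In both pairs the groups did not overlap.

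Of the membrane members, Car4 was close to 0, Car12 ranked 11234 of 11245 tested genes by mean RPKM, and Car9 ranked 9248, beside Car2 at 9104. Car4 (chr11:84957786-84966044, plus strand), the lipid-anchored isoform of capillary and kidney surfaces, was represented by 3 reads in the overexpression libraries together, 0 in the empty-vector libraries, 2 in the hairpin libraries and 6 in the scrambled-hairpin libraries. Its highest value was 0.0532 RPKM, from 4 reads in a single scrambled-hairpin library. A count of 0 allows up to 3 reads, which for Car4 is 0.0397 to 0.0433 RPKM depending on the library, counting error alone considered. No fold change is given. All 5 endothelial markers were listed and none was tested, with a summed level of 0.372 to 0.543 RPKM in overexpressing cells and at most 0.328 RPKM in the others.

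Car9 and Car12 varied most in relative terms. Car9 (chr4:43506966-43513729, plus strand) stood at 0.812, 0.886 and 1.04 RPKM in overexpressing cells, against 0.172, 0.260 and 0.123 RPKM in empty-vector cells, the last from 23 reads or fewer per library. All overexpression libraries were above all empty-vector libraries, with a ratio of means of 4.93. The log2 fold change was 0.69 ± 0.0546 (adjusted p = 4.41e-07) on the log2(RPKM + 1) scale, which understates changes of genes this low. On the reads themselves, with voom, it was 2.31 ± 0.229 (adjusted p = 2.40e-07). Hairpin cells had 2.37, 2.30 and 2.26 RPKM of Car9, against 4.56, 4.73 and 4.76 RPKM in scrambled-hairpin cells. The hairpin libraries were all lower, with a ratio of means of 0.493 and a log2 fold change of -0.78 ± 0.0546 (adjusted p = 6.40e-07).

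The antisense gene Gm12454 overlaps Car9 on the minus strand, and the strand setting of the counting is not given in the sources used here, so that reads of the pair cannot be told apart. Gm12454 had 7 reads in overexpression libraries and 8 in empty-vector libraries, and 31 in hairpin libraries and 54 in scrambled-hairpin libraries. In each group it was below Car9 in RPKM and was not tested.

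Car12 (chr9:66713686-66766845, plus strand) repeated this pattern at a lower level. It stood at 0.189, 0.176 and 0.168 RPKM in overexpressing cells, against 0.0416, 0.0205 and 0.0187 RPKM in empty-vector cells, which is 47 to 53 against 5 to 12 reads per library. The groups did not overlap, the ratio of means was 6.59 and the log2 fold change was 0.20 ± 0.0511 (adjusted p = 0.00648). This call was lost under quantile normalization (0.13, adjusted p = 0.0551), whereas voom on the reads gave 2.72 ± 0.309 (adjusted p = 1.29e-06). Hairpin cells had 0.312, 0.328 and 0.325 RPKM of Car12, against 1.16, 1.39 and 1.38 RPKM in scrambled-hairpin cells. The hairpin libraries were all lower, at 0.246 of the scrambled-hairpin mean, with a log2 fold change of -0.80 ± 0.0511 (adjusted p = 3.10e-07) and -2.01 ± 0.122 on the reads. Car12 reached 1 RPKM in the scrambled-hairpin libraries alone, so the filter let it into the test through the group where it is high. Its values against that group, here, in the difference of the responses and between the controls, are therefore to be read as a description. With no filter on low values the adjusted p for Car12 was 1.76e-06 in knockdown, 7.72e-07 in the difference and 1.37e-08 between the controls.

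The difference between the responses to overexpression and to the hairpin was itself tested, with no library in both responses, and all 6 members were called in it, 2 higher and 4 lower, beside 54.9% of all genes tested, 34.6% higher and 20.3% lower. On the log2(RPKM + 1) scale it was -1.97 for Car3, -0.83 for Car13 and -0.36 for Car2, and 1.47 for Car9 and 1.00 for Car12. The adjusted p was 0.00556 for Car2 and 3.10e-07 or below for the other 4. For Car12, which entered the test through the scrambled-hairpin group alone, value and call are a description. This scale understates changes of genes as low as Car9 and Car12. With voom on the reads the difference was 4.74 for Car12, 3.33 for Car9 and -2.475 for Car3. It was then -0.87 for Car13 and -0.53 for Car2, so that Car12 and no longer Car3 had the largest value. Of all genes tested, 12.1% were called higher in overexpression and lower in knockdown, as were Car9 and Car12. A further 6.0% were called lower in overexpression and higher in knockdown, as were Car3 and Car13.

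**Figure D3:**
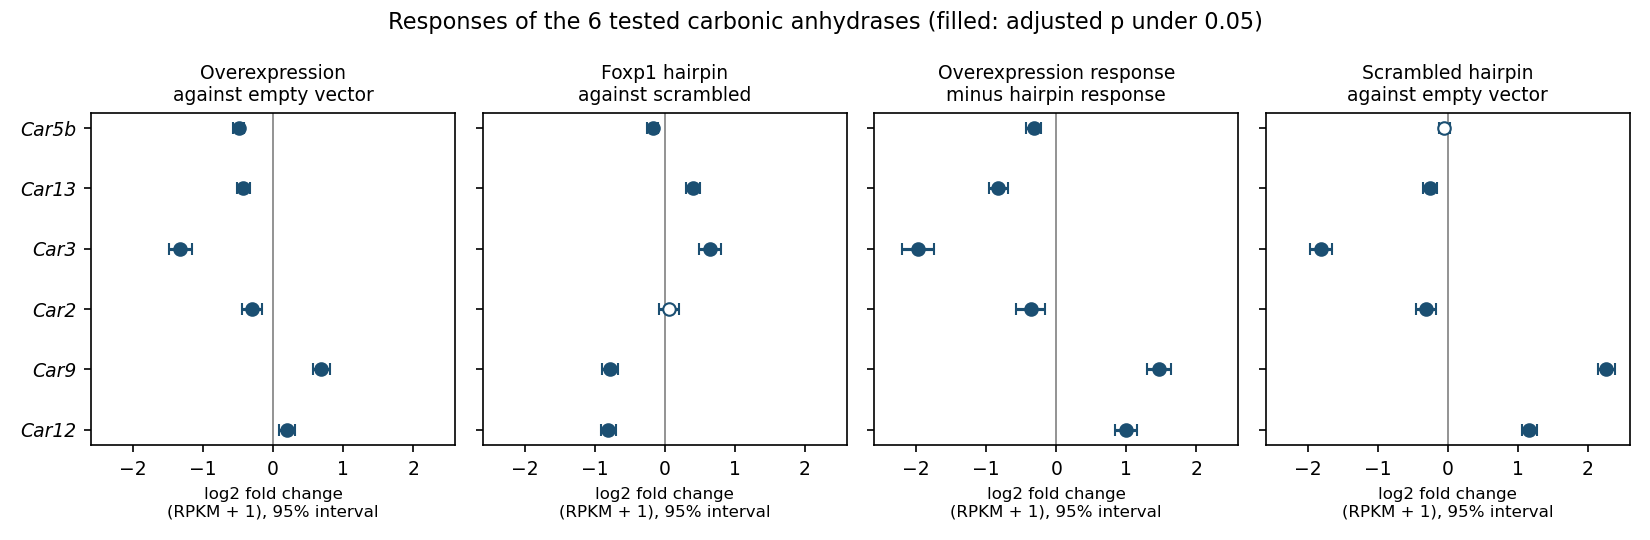
Log2 fold change on the log2(RPKM + 1) scale (x axis) of each tested member (rows) with its 95% interval, for overexpression, hairpin, their difference and the controls (panels, left to right). Filled points passed an adjusted p of 0.05. Car3 and Car13 lie left of 0 in the first panel and right of it in the second, and Car9 and Car12 the other way round.

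Between the control groups the log2 fold changes of Car9, Car12 and Car3 were larger than in either experiment. These groups differ in construct type and in anything else that set both experiments apart, and these cannot be told apart. The comparison shares its libraries with those above. Scrambled-hairpin cells had 4.68 ± 0.106 RPKM of Car9 and empty-vector cells 0.185 ± 0.0692 RPKM, 25.3 times as much (log2 fold change 2.26 ± 0.0546, adjusted p = 1.17e-11). For Car12 the means were 1.31 ± 0.134 RPKM in scrambled-hairpin cells and 0.0269 ± 0.0127 RPKM in empty-vector cells, a ratio of 48.6 that rests on 23 empty-vector reads (log2 fold change 1.17 ± 0.0511, adjusted p = 1.20e-09). For Car3 they were 1.92 ± 0.251 RPKM in scrambled-hairpin cells and 9.26 ± 1.02 RPKM in empty-vector cells (log2 fold change -1.81 ± 0.0745, adjusted p = 6.92e-10).

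Car2 and Car13 were also lower in scrambled-hairpin cells, with log2 fold changes of -0.32 (adjusted p = 0.000912) and -0.25 (adjusted p = 0.000207). Car5b did not pass the test between the controls, at -0.05 with a 95% interval of -0.13 to 0.03 (adjusted p = 0.264). Under median-ratio scaling and quantile normalization it did pass (-0.13 and -0.12, adjusted p = 0.0266 and 0.0268), and under TPM scaling the sign was positive (0.03, adjusted p = 0.428). In all, 5 of 6 members were called between the controls, 2 higher and 3 lower in scrambled-hairpin cells, beside 71.8% of all genes tested, 44.8% higher and 27.0% lower. The call of Car12 among them is a description, since it entered the test through the scrambled-hairpin group alone. Overexpressing cells, although above their own control, held less Car9 and Car12 than hairpin cells did, at 0.912 ± 0.115 RPKM against 2.31 ± 0.0564 RPKM for Car9. For Car3 the libraries of both groups lay close together without overlapping, at 3.08 ± 0.175 RPKM in overexpressing cells and 3.57 ± 0.181 RPKM in hairpin cells. These values come from different experiments and were not tested against each other.

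Since CA9 and CA12 are known as hypoxia-inducible in human cells, 12 hypoxia-inducible genes were read beside Car9 and Car12. The list holds no glycolytic enzymes and was chosen with earlier results of these data known, so its counts are a description. In overexpression 9 of the 12 rose and 2 fell, beside 31.0% and 20.3% of all genes tested, and the median log2 fold change was 0.71 against 0.04 over all genes. In knockdown 0 rose and 11 fell, beside 18.7% and 31.0% of all genes, with a median of -0.38 against -0.04. Between the controls 11 were higher in scrambled-hairpin cells and 1 lower, beside 44.8% and 27.0% of all genes, with a median of 2.04 against 0.09. No oxygen measurement is among the labels.

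The genes of this list with the smallest adjusted p give its scale. The prolyl hydroxylase Egln3, which marks hypoxia-inducible factor for degradation, averaged 51.7 ± 3.84 RPKM in overexpressing cells and 20.9 ± 1.44 RPKM in empty-vector cells. Its relative Egln1 had 39.7 ± 0.923 RPKM in overexpressing cells and 25.2 ± 1.02 RPKM in empty-vector cells, and 82.5 ± 0.79 RPKM in hairpin cells and 113 ± 0.936 RPKM in scrambled-hairpin cells. The collagen hydroxylase P4ha1 rose by 0.91 on the log2 scale in overexpression. In knockdown the stress-responsive Ndrg1 fell by 1.02 and the peptide hormone Adm by 1.16. Like Car9 and Car12, Egln1 and Egln3 were highest in scrambled-hairpin cells and lowest in empty-vector cells. Adm, Vegfa and Ero1l of the list were not. Adm was highest in empty-vector cells, at 8.69 ± 1.03 RPKM against 6.50 ± 0.625 RPKM in scrambled-hairpin cells. Vegfa and Ero1l fell in overexpression, by 0.19 and 0.44 on the log2 scale, and were lowest in overexpressing cells.

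**Figure D4:**
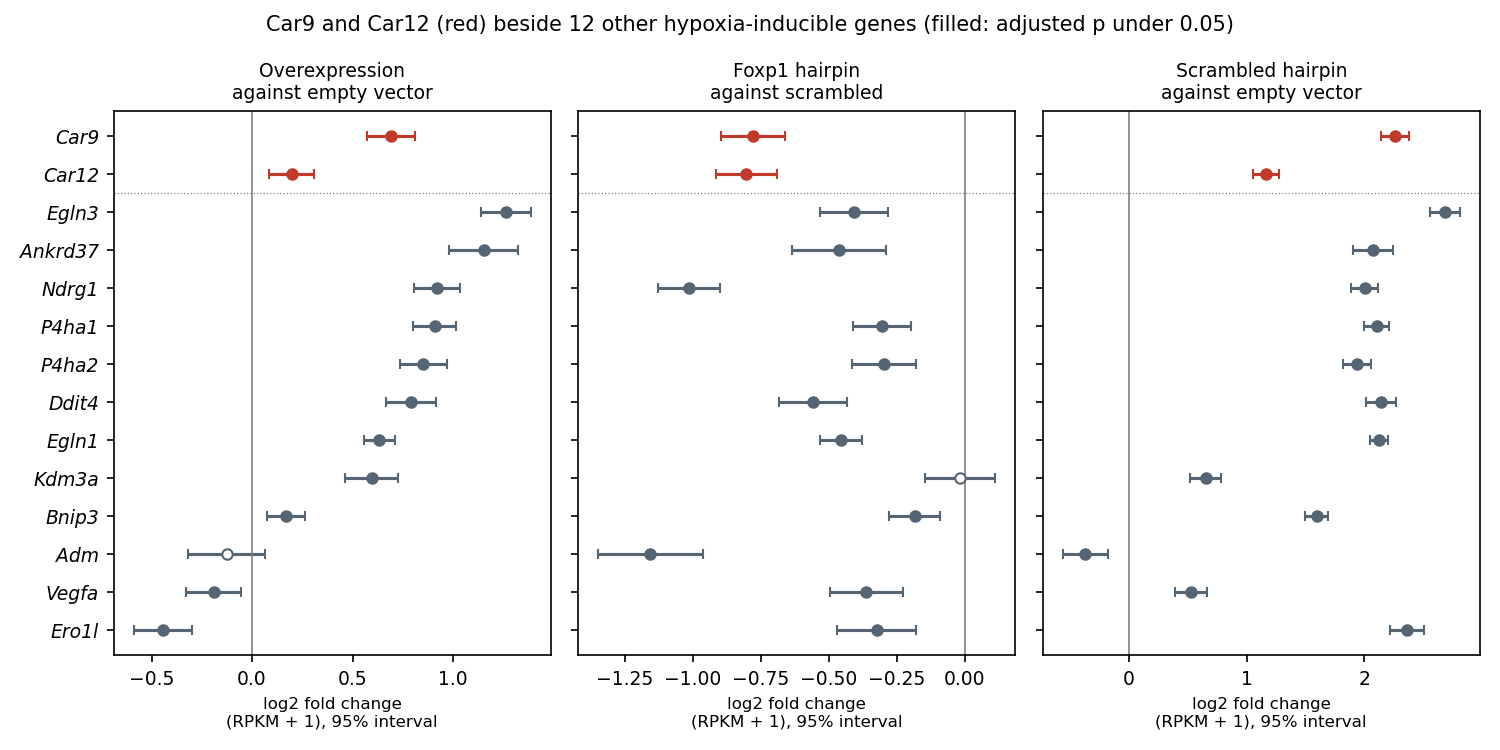
Log2 fold change on the log2(RPKM + 1) scale (x axis) with its 95% interval for Car9 and Car12 (red, top) and 12 hypoxia-inducible genes (grey), in overexpression, hairpin and control comparisons (panels). Filled points passed an adjusted p of 0.05. In the hairpin panel 11 of the 12 lie significantly left of 0, as does Car9. Car12 also lies left of 0, but it entered the test through the scrambled-hairpin group alone, so its point is a description.

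The promoters of Car9 and Car12 were examined because these genes moved together. The windows are 300 bases across the annotated start (RefSeq, GRCm38.p6, chr4:43506776-43507075 and chr9:66713436-66713735, both plus strand). Capitals mark matches to ACGTG or GCGTG, the core of the hypoxia response element, or to TGTTTA, a forkhead core, searched on both strands. No motif overlaps another in these windows.
Car9: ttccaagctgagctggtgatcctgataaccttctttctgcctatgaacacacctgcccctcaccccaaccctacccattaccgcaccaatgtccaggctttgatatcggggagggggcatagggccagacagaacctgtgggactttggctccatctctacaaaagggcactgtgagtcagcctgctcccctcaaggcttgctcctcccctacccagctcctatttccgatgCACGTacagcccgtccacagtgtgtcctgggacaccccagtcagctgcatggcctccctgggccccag
Car12: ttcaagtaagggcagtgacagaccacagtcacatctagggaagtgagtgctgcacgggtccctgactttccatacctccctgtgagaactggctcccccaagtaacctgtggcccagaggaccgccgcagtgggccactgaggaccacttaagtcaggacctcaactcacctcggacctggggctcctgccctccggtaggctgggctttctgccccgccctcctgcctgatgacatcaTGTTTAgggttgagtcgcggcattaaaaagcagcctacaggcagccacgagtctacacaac
The Car9 window held 1 match to ACGTG, on the minus strand, and none to TGTTTA. The first base of this match in the window lay 18 bases before the RefSeq start. The gene start of Car9 printed above, 43506966, lies further upstream in the same window. By that start the match lies inside the gene. The Car12 window held no ACGTG or GCGTG and 1 TGTTTA on the plus strand, beginning 11 bases before the start. Of 32851 mouse promoter windows of the same length, 19.6% held ACGTG, 43.8% held either hypoxia core and 13.4% held TGTTTA. Car5b had 5 GCGTG matches in its window, a number that 0.463% of windows reached or passed. The cutoff of 5 is the count found in Car5b itself, so nothing is read from this share. The Car5b window was also 61.7% G and C with 12 CG pairs, against medians of 52.7% and 7 over all windows. The window of Car4, which was too low to measure, held 1 ACGTG match on the minus strand, beginning at base 3 from the start. All of these are matches of letters and not measured binding.

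Genes that carry the products and substrates of these enzymes showed mixed responses. The counts that follow stand beside 31.0% of all genes called higher and 20.3% lower in overexpression, and 18.7% higher and 31.0% lower in knockdown. Of 5 tested bicarbonate transporters, 1 rose and 0 fell in overexpression (median 0.04, against 0.04 over all genes), and 1 rose and 2 fell in knockdown (median -0.11, against -0.04). The anion exchanger Slc4a2 averaged 16.5 ± 0.509 RPKM in overexpressing cells and 12.2 ± 0.299 RPKM in empty-vector cells (log2 fold change 0.40, adjusted p = 9.79e-06), and 10.9 ± 0.353 RPKM in hairpin cells and 8.39 ± 0.517 RPKM in scrambled-hairpin cells (0.34, adjusted p = 6.47e-05). It thus rose in both, as did 4.72% of all genes tested. The sodium-bicarbonate cotransporter Slc4a4 fell by 0.38 in knockdown (adjusted p = 5.90e-05).

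Of 5 tested proton and lactate carriers 2 rose and 2 fell in overexpression and 1 rose and 4 fell in knockdown (medians -0.0021 and -0.21, against 0.04 and -0.04 over all genes). The lactate transporter Slc16a1 averaged 22.4 ± 0.669 RPKM in overexpressing cells and 11.4 ± 0.451 RPKM in empty-vector cells, and 27.5 ± 1.00 RPKM in hairpin cells and 23.0 ± 0.803 RPKM in scrambled-hairpin cells. Its log2 fold changes were 0.92 (adjusted p = 2.95e-09) and 0.25 (adjusted p = 0.000392). Its chaperone Bsg rose by 0.49 in overexpression and fell by 0.54 in knockdown. Between the controls both were higher in scrambled-hairpin cells, with ratios of means of 2.02 for Slc16a1 and 2.30 for Bsg.

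On the side of metabolism, 2 of 8 tested carboxylases that use bicarbonate rose and 3 fell in overexpression, and 1 rose and 2 fell in knockdown (medians 0.02 and 0.02, against 0.04 and -0.04 over all genes; 51.4% and 49.7% of all genes were called). The mitochondrial pyruvate carboxylase Pcx averaged 579 ± 84.8 RPKM in overexpressing cells and 762 ± 45.4 RPKM in empty-vector cells, and fell by 0.41 on the log2 scale (adjusted p = 0.00558), or by 0.28 without overexpression replicate 3 (adjusted p = 0.0125). It averaged 619 ± 51.5 RPKM in hairpin cells and 566 ± 47.6 RPKM in scrambled-hairpin cells, with a log2 fold change of 0.13 (adjusted p = 0.322). Acacb, the mitochondria-associated acetyl-CoA carboxylase, averaged 9.02 ± 1.28 RPKM in overexpressing cells and 3.62 ± 0.27 RPKM in empty-vector cells, and 2.38 ± 0.25 RPKM in hairpin cells and 3.47 ± 0.353 RPKM in scrambled-hairpin cells, a rise and a fall (adjusted p = 6.29e-07 and 0.00308). Mccc1, a leucine-catabolic carboxylase subunit, fell by 0.70 in overexpression. Of 14 enzymes that release carbon dioxide, 4 rose and 7 fell in overexpression and 3 rose and 4 fell in knockdown (medians -0.08 and -0.02, against 0.04 and -0.04 over all genes). Among them Pgd of the pentose phosphate pathway fell by 0.57 in overexpression and rose by 0.41 in knockdown, the directions of Car3 and Car13.

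As a description of likeness across the 12 libraries, which share the 4 group means, Pearson's r on log2(RPKM + 1) was computed with genes of at least 5 RPKM on average. Car9 was most like Scarb1, Efr3a and Map2k4 (r = 0.995, 0.994 and 0.993). Car3 was most like Irs1, Psmb10 and Parp12 (r = 0.985, 0.983 and 0.982), and Car5b like Ypel5, Lgals12 and Tcn2 (r = 0.987, 0.985 and 0.979). Car13 was most like Mmgt1, Aspn and Pgd (r = 0.977, 0.967 and 0.961), Car12 like AC122442.1, Rnf34 and St6galnac6 (r = 0.989, 0.984 and 0.984) and Car2 like Sh3d19, Lrrc27 and Tecpr1 (r = 0.927, 0.927 and 0.912). Among the members, r was 0.926 for Car9 with Car12, 0.857 for Car2 with Car3 and -0.867 for Car3 with Car9.

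Without overexpression replicate 3, the library with the highest mitochondrial share, the overexpression calls of all 6 members stood. The log2 fold changes were then -1.35 for Car3, -0.53 for Car5b, -0.42 for Car13, -0.27 for Car2, 0.64 for Car9 and 0.20 for Car12.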

How the data were processed

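RNA levels per gene were measured in 12 libraries of 3T3-L1 adipocytes. The deposited matrix, made by the authors, holds RPKM values divided by 1000, as their sums of 312 to 358 per library and the value of 1 read show, and these were multiplied by 1000. The submitters' processing notes name HISAT2 2.1.0, Subread 1.5.3 with featureCounts, and build mm10. Strand setting and multi-mapping reads are not given in the sources used here. RPKM is relative, so a level shifts with the rest of its library.

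Symbols and exon lengths came from GENCODE M21 (28896 of 28948 identifiers). Value times exon length gave whole reads (tolerance 0.05) for 98.8% to 98.9% of the nonzero values. These recovered reads give the depth and the voom alternative. The filter was 1 RPKM or more in 3 or more libraries. The test, on log2(RPKM + 1), was limma's moderated fit with a variance trend (limma 3.58.1, R 4.3.3), 1 model holding the 4 groups, and calls were made at a Benjamini-Hochberg adjusted p below 0.05. The contrasts were overexpression against empty vector, hairpin against scrambled hairpin, the difference of these, and scrambled hairpin against empty vector. The overexpression and knockdown fits were also run on simulated reads in which far fewer genes changed than were called here. Those runs do not show how the fits behave where so many genes move. Means are over 3 libraries with SD, and fold changes carry the SE of the fit.

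The members and gene lists were chosen with earlier results of these data known. The genes named were all members, the other tested family genes, up to 3 genes per list and comparison by smallest adjusted p (not all of which are given), and the 3 genes most like each member. Gm12454, Car14, Pcx, Vegfa, Ero1l and the genes at and beside the chromosome 3 cluster were added after their values were seen. Vegfa and Ero1l were not followed under the alternatives. Promoters came from RefSeq tables, which held 4 of the 7 members, and coding sequences from GENCODE with Biopython 1.88. Alternatives were other pseudocounts, filters, scalings, variance models, voom, a block for the replicate number and leaving out each library. Python 3.11.15, pandas 2.3.3, numpy 2.4.6 and matplotlib 3.10.9 made tables and figures.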

Additional observations from a re-analysis of the deposited data

How the results depend on the processing

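Of 434 values of the 6 tested members under 23 alternatives, 430 kept direction and call. Car5b between scrambled-hairpin and empty-vector cells was 0.0324 under TPM scaling, against -0.05, and it passed the threshold under median-ratio scaling (-0.13) and quantile normalization (-0.12). Car12 in overexpression no longer passed under quantile normalization (0.13). Car12 left the test where a mean of at least 1 RPKM was asked. The cause was not tested for the scalings. Of 643 values of the other named genes, 637 kept direction and call; the exceptions were Car1 in overexpression, without overexpression replicate 2 (-0.17), and Car1 in knockdown, without a filter on low values (0.19), with voom (0.39) and without the 3 libraries named in the report.

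Correlations of same-numbered deviations ranged from -0.013 to 0.118 in overexpression and from -0.073 to 0.049 in knockdown. With 3 libraries per group these values cannot exclude a pairing by replicate number. With the replicate block, 6, 5, 6 and 5 members were called in overexpression, knockdown, their difference and the controls, and 5888, 5709, 6328 and 8164 genes in all, against 5775, 5587, 6173 and 8070 without it. The split of calls over all genes depended on scaling. In overexpression 3490 genes were higher and 2285 lower, against 2419 and 2565 under TPM scaling. In knockdown 2100 were higher and 3487 lower, against 1613 and 3733 under TPM scaling, 2626 and 2948 under median-ratio scaling and 2650 and 2925 under quantile normalization. In the difference of responses 3888 were higher and 2285 lower, against 3142 and 2909 under median-ratio scaling and 3069 and 2989 under quantile normalization. Between the controls 5037 were higher and 3033 lower, against 5696 and 2355 under TPM scaling, 4167 and 3784 under median-ratio scaling and 4045 and 3893 under quantile normalization. Depth limits Car4 in every group, and Car9 and Car12 in empty-vector cells.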

Other observations

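Other carbonic anhydrase genes of the mouse were read from the same libraries. Of 9 such genes 8 were read, Car10 was not analysed here, and Car1, Car6 and Car11 were tested. Car6, the secreted isoform of saliva, averaged 2.43 ± 0.17 RPKM in overexpressing cells and 0.409 ± 0.0305 RPKM in empty-vector cells (log2 fold change 1.28 ± 0.0735, adjusted p = 2.21e-08). It averaged 2.89 ± 0.127 RPKM in hairpin cells and 4.28 ± 0.643 RPKM in scrambled-hairpin cells (-0.44 ± 0.0735, adjusted p = 0.000415). Car6 was thus lowest in empty-vector and highest in scrambled-hairpin cells, as Car9 and Car12 were. Car11, the relative without the zinc-site histidines shown above, averaged 5.38 ± 0.571 RPKM in overexpressing cells and 5.64 ± 0.159 RPKM in empty-vector cells (-0.06 ± 0.0715, adjusted p = 0.494). It fell in hairpin cells, with 5.15 ± 0.59 RPKM against 8.56 ± 0.175 RPKM in scrambled-hairpin cells (-0.64 ± 0.0715, adjusted p = 1.88e-05).

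Car5a, Car7, Car8, Car14 and Car15 stayed below 1 RPKM in all 12 libraries. Among these the membrane-spanning Car14, singled out after its values were seen, had 61, 61 and 53 reads in overexpression libraries against 3, 7 and 2 reads in empty-vector libraries, and 0, 0 and 2 reads in hairpin libraries against 2, 1 and 1 reads in scrambled-hairpin libraries. This corresponds to 0.623 ± 0.0492 RPKM in overexpressing cells and 0.0417 ± 0.0263 RPKM in empty-vector cells. Car14 was below the filter and has no test.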
